A study of Rattus norvegicus with 12 samples.

Results

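The ID genes and the response genes, inhibitors and ligands of bone morphogenetic protein (BMP) signalling were followed in neonatal rat ventricular cardiomyocytes. The set holds 10 genes, Id1, Id2, Id3, Id4, Smad6, Smad7, Bambi, Bmp2, Bmp4 and Bmp10, each matched by its symbol to 1 of the 32883 gene rows of the count table. It was drawn up as a pathway family, and Id4 was put in it because it had been seen to be higher in K815R than in WT. That comparison is therefore described for every gene without a test. Id4 is tested only between the K815Q-labelled libraries and LacZ, which played no part in that choice.

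The cells are primary heart muscle cells from newborn rats, and all of them carried an adenovirus for 2 days before RNA was taken. The control virus carried LacZ, a bacterial gene. The other viruses carried human KAT6A, a histone acetyltransferase, as the wild-type protein (WT), as the K815R mutant that resists acetylation at that lysine, or as the K815Q mutant that mimics it. Each of the 4 groups has 3 libraries. The labels state no separate preparations of cells, so p-values measure the spread between these libraries, which may be technical.

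BMP ligands bind paired type I and type II receptors on the cell surface. The receptors phosphorylate SMAD1, SMAD5 and SMAD9, which enter the nucleus with SMAD4 and switch on target genes. The ID genes are among the most direct of these targets. ID proteins have a helix-loop-helix domain but no DNA-binding region, so they pair with E proteins such as TCF3, TCF4 and TCF12 and keep them off DNA. SMAD6, SMAD7 and the pseudoreceptor BAMBI are made in response to the signal and restrain it. In the developing heart BMP2 and BMP4 pattern the valves and outflow tract, BMP10 supports growth of the muscular wall, and ID proteins act largely in the inner and outer linings.

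The DNA ahead of 3 of the ID genes is shown first because Id1, Id2 and Id3 were nearer to one another in level across the libraries than any of them was to Id4. RefSeq promoter windows of build GRCr8 matched 8 of the 10 genes. Each line gives 200 bases, from 250 to 51 bases before the annotated start, written 5′ to 3′ along the gene. Capitals mark any match, on either strand, to GGCGCC or GGAGCC, which BMP-activated SMADs bind, to CAGAC, a general SMAD core, or to CCAAT or TATAA, common promoter elements. The counts were made on build Rnor_6.0, so these positions belong to the sequences alone.
Id1 (chr3:161671314-161671513, + strand): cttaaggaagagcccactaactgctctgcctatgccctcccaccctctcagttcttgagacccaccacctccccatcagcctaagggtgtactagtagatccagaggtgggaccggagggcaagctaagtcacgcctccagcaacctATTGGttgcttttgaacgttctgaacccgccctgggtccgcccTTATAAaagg
Id2 (chr6:47471046-47471245, - strand): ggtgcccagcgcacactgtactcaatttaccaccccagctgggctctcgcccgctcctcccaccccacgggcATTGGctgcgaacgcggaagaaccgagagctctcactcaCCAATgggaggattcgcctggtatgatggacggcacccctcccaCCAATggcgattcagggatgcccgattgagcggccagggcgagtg
Id3 (chr5:153656041-153656240, + strand): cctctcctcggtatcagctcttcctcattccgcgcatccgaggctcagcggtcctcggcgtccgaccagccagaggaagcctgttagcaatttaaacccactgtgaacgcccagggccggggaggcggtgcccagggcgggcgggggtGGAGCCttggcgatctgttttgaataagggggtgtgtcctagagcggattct
Of the SMAD motifs, Id3 held GGAGCC 102 bases before its start, whereas these windows of Id1, Id2 and Id4 held none. GGAGCC was present in 3 of the 8 matched genes, and in 18.4% of all 33469 promoter windows of that length. GGCGCC was present in Smad7 and Bambi, and in 6.6% of all windows. CAGAC was present in Bmp4 alone of the 8, and in 36.6% of all windows. Id1 carried TATAA on both strands, with overlapping matches, and a CCAAT match 103 bases before its start. Id2 carried 3 CCAAT matches. In RefSeq a non-coding gene overlaps the start of Id1, and whether the authors' annotation held it is not given in the sources used here.

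The libraries held 19102048 to 25451686 gene counts. Levels are given as CPM, counts scaled to the library total with TMM factors, and are compared only within a gene because they are not corrected for gene length. Rat Kat6a, the row on which reads of the delivered human gene would fall where they align to it, averaged 48.1 ± 4.75 CPM (SD, n = 3) in LacZ, 93.0 ± 12.3 in WT and 108 ± 11.7 in K815R. In the K815Q-labelled libraries it averaged 46.3 ± 3.35 CPM, so the rise that their label calls for was not seen, and directions reported for them depend on that label. Prkaa2, which encodes a catalytic subunit of the kinase AMPK and which no sample label names, averaged 60.9 CPM with LacZ, 519 with WT, 87.2 in K815R and 1168 in the K815Q-labelled libraries. Its part in the results was not tested. The summed level of 8 cardiomyocyte markers ran from 39320 to 44390 CPM. Markers of other cell types were present too: 8 fibroblast genes summed to 10960 to 12800 CPM, 7 endothelial genes to 145 to 217, 8 macrophage genes to 46.5 to 68.7 and 5 epicardial genes to 29.1 to 37.0. No marker of these types was at 0 in all libraries, and the symbol Pecam1 of the endothelial list had no row.

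In the table's Ensembl identifiers, Id1 is ENSRNOG00000021750, Id2 ENSRNOG00000007237, Id3 ENSRNOG00000026124 and Id4 ENSRNOG00000016099. Of the 10 genes, 9 passed the filter on low counts, and each of these had at least 95 counts in every library. Bmp10 did not pass: it had 6 counts in all, spread over 5 of 12 libraries, with at most 2 in any of them. A count of 3, taken as the limit of detection, corresponds to 0.118 to 0.156 CPM. BMP10 is a ligand of trabecular and atrial heart muscle, and at this depth no order of the groups could be read from it.

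**Figure D1:**
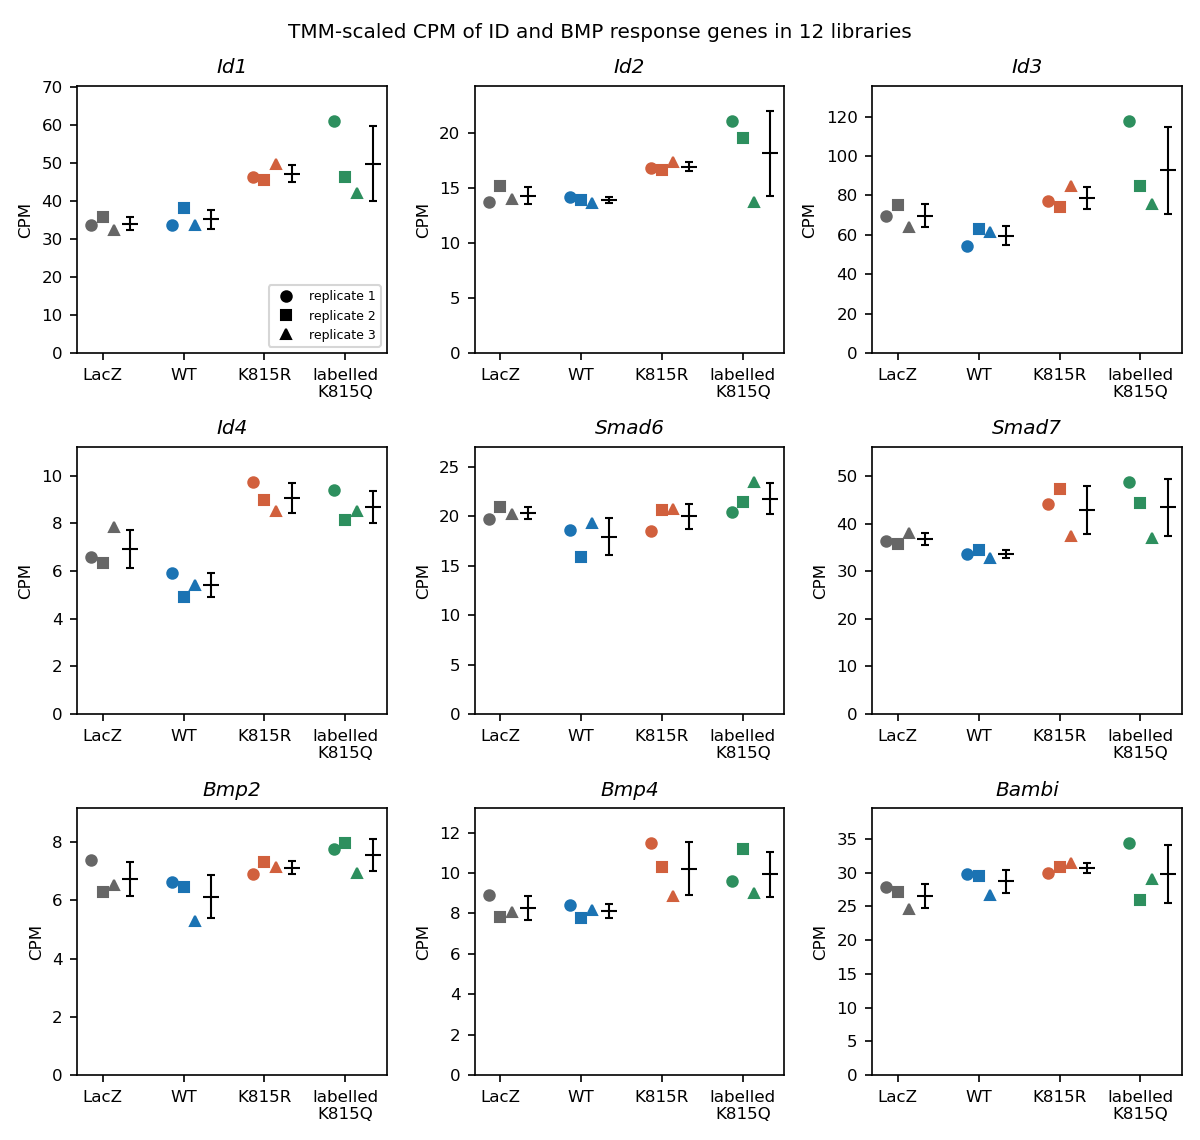
TMM-scaled CPM of 9 ID and BMP response genes (vertical axis, from 0) in LacZ, WT, K815R and labelled K815Q. Points are the 3 libraries of each group, shaped by replicate number, and the bar beside them is the mean ± SD. Id1 is higher in all K815R and K815Q-labelled libraries (42.1 to 61.1 CPM) than in all LacZ and WT libraries (32.5 to 38.0 CPM).

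Id1, a standard readout of BMP signalling, was the only one of these genes to pass the test, and it did so in 3 comparisons. It stood at 33.7, 35.9 and 32.5 CPM in the LacZ libraries and at 33.8, 38.0 and 33.8 CPM in the WT libraries. The K815R libraries stood at 46.4, 45.5 and 49.6 CPM, and the K815Q-labelled libraries at 61.1, 46.4 and 42.1 CPM. All K815R and K815Q-labelled libraries lay above all libraries of LacZ and WT. Libraries overlapped between K815R and labelled K815Q, and between LacZ and WT. Replicate 1 of the K815Q-labelled group was the highest of the 12. In bulk RNA, fewer cells of a type and less RNA per cell cannot be told apart.

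Against LacZ, Id1 rose 1.39-fold in K815R (log2 fold change 0.47, SE 0.108, edgeR adjusted p 0.0346). Such p-values come from the edgeR quasi-likelihood F-test, with the Benjamini-Hochberg method applied over all tested genes, and a gene is called where they are under 0.05. Against the same LacZ libraries, Id1 rose 1.47-fold in the K815Q-labelled libraries (log2 fold change 0.55, SE 0.109, edgeR adjusted p 0.00867). Against WT, Id1 rose 1.42-fold in the K815Q-labelled libraries (log2 fold change 0.50, SE 0.110, edgeR adjusted p 0.0475). In WT against LacZ it differed by a log2 fold change of 0.05, with a 95% interval from -0.19 to 0.29 (edgeR adjusted p 0.866). K815R minus labelled K815Q was -0.08, with a 95% interval from -0.31 to 0.15 (edgeR adjusted p 0.822). The described difference between K815R and WT was 0.42.

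The Id1 calls depended on single libraries. For K815R against LacZ, 4 of the 12 leave-one-out fits remained past the threshold. All 6 without a K815R or LacZ library lost the call, with log2 fold changes of 0.44 to 0.51 and edgeR adjusted p of 0.0823 to 0.164, as did the fits without WT replicate 1 or 3. For labelled K815Q against LacZ, 11 of 12 kept the call, and it was lost without LacZ replicate 3 (0.52, edgeR adjusted p 0.0558). Without K815Q replicate 1, its highest library, that difference was 0.38 (edgeR adjusted p 0.00636). For labelled K815Q against WT, the fit without K815Q replicate 3 was the 1 of 12 that kept the call (0.61, edgeR adjusted p 0.00348), so it was also lost without any library of LacZ or K815R. Without K815Q replicate 1 it was 0.33 (edgeR adjusted p 0.0536), and fitting the 6 libraries of these groups by themselves gave 0.50 (edgeR adjusted p 0.196).

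Marker lists of other cell types are given beside these calls. The 7 endothelial markers summed to 171 to 192 CPM with LacZ, 171 to 217 with WT, 184 to 212 in K815R and 145 to 199 in the K815Q-labelled libraries. EdgeR called 0 of the 7 in each comparison in which Id1 was called. In labelled K815Q against LacZ, 1 of them had an unadjusted p under 0.05 and DESeq2 called 1, and both counts were 0 in K815R against LacZ and labelled K815Q against WT. The 8 fibroblast markers summed to 11820 to 12690 CPM with LacZ, 10960 to 12010 with WT, 11060 to 11510 in K815R and 11910 to 12800 in the K815Q-labelled libraries. Most of each sum is Col1a1 (7210 to 8610 CPM) and Col3a1 (2870 to 3480 CPM), while Col1a2 ran from 9.14 to 126 CPM. The mean log2 CPM of the 8 ran from 7.674 to 7.765 with LacZ and 7.623 to 7.728 with WT. It ran from 7.667 to 8.12 in K815R and 7.675 to 8.232 in the K815Q-labelled libraries. Of the 8 fibroblast markers, edgeR called 2 as higher in labelled K815Q against LacZ, where 4 had an unadjusted p under 0.05 and DESeq2 called 3. In labelled K815Q against WT it called 1 as higher, where 6 of the 8 had an unadjusted p under 0.05 and DESeq2 called 1. In K815R against LacZ edgeR called 0, 3 had an unadjusted p under 0.05 and DESeq2 called 1. A list of 10 interferon-induced genes summed to 296 to 529 CPM with LacZ, 52.5 to 103 with WT, 89.7 to 134 in K815R and 46.8 to 61.6 in the K815Q-labelled libraries. Of these, 10 were called as lower in WT, 9 in K815R and 10 in labelled K815Q, each against LacZ. EdgeR called 0 in labelled K815Q against WT, with 0 at an unadjusted p under 0.05 and 0 called by DESeq2.

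The other marker lists had few edgeR calls in the comparisons in which Id1 was called. Against LacZ, the K815Q-labelled libraries had 1 of 6 smooth muscle and pericyte markers and 1 of 8 cardiomyocyte markers called as higher and 1 of 8 macrophage markers called as lower. Of the macrophage markers 4 had an unadjusted p under 0.05 there, DESeq2 called 0 and the median log2 fold change was 0.28. For the smooth muscle and pericyte list, and for the cardiomyocyte list, 2 had an unadjusted p under 0.05 and DESeq2 called 2. In K815R against LacZ, 1 of 5 atrial cardiomyocyte markers was called as higher. There edgeR called 0 of the 8 cardiomyocyte markers, 3 had an unadjusted p under 0.05 and DESeq2 called 3. The cardiomyocyte markers summed to 39320 to 41470 CPM with LacZ and 41250 to 42110 with WT. Their sums were 43320 to 44390 CPM in K815R, above all LacZ libraries, and 39940 to 41720 in the K815Q-labelled libraries. The smooth muscle and pericyte markers summed to 794 to 865 CPM with LacZ, 843 to 889 with WT, 814 to 897 in K815R and 843 to 873 in the K815Q-labelled libraries. The macrophage markers summed to 46.5 to 61.5 CPM with LacZ and 60.6 to 63.9 with WT. Their sums were 63.1 to 66.6 CPM in K815R and 62.8 to 68.7 in the K815Q-labelled libraries, both above all LacZ libraries. The part of these markers, of the fibroblast markers and of the interferon genes in the Id1 result was not tested.

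Id3, which overlaps Id1 in function during vessel and heart lining development, was lowest in WT and highest in the K815Q-labelled libraries. It stood at 69.8, 75.4 and 63.8 CPM in LacZ and at 54.3, 63.2 and 61.4 CPM in WT. It stood at 77.3, 74.0 and 84.8 CPM in K815R and at 118, 84.8 and 75.7 CPM in the K815Q-labelled libraries. The WT libraries lay below all others, and the K815Q-labelled group was spread most, with replicate 1 far above the rest.

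None of the Id3 differences was called by edgeR with all libraries in the fit. The log2 fold change of labelled K815Q was 0.64 against WT (SE 0.156, edgeR adjusted p 0.113) and 0.41 against LacZ (SE 0.153, edgeR adjusted p 0.137). DESeq2 called the first (adjusted p 0.00846). Without K815Q replicate 1 the value against WT was 0.43 with an edgeR adjusted p of 0.0248; the value against LacZ was 0.21, with no call. Without K815Q replicate 3 both passed, at 0.77 and 0.54. WT against LacZ gave -0.22, with a 95% interval from -0.58 to 0.13. K815R exceeded LacZ by 0.18, with a 95% interval from -0.17 to 0.52, and its described difference from WT was 0.40.

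Id2, which restrains differentiation in several kinds of precursor cell, was tightly grouped in 3 of the 4 groups. It stood at 13.7, 15.2 and 14.0 CPM with LacZ, 14.2, 14.0 and 13.6 with WT, and 16.8, 16.6 and 17.4 in K815R. The libraries labelled K815Q stood at 21.1, 19.6 and 13.8 CPM, so replicates 1 and 2 lay above every other library and replicate 3 lay inside the LacZ range. All K815R libraries were above all LacZ and WT libraries.

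For Id2, edgeR called no comparison with all libraries in the fit and the filter in place. Labelled K815Q came nearest, at a log2 fold change of 0.35 above LacZ (SE 0.108, edgeR adjusted p 0.0559) and 0.38 above WT (edgeR adjusted p 0.108). Without K815Q replicate 3 these were 0.51 and 0.55 and both passed (edgeR adjusted p 8.44e-04 and 0.00299). With all libraries, labelled K815Q against LacZ passed in 3 of 7 other settings and labelled K815Q against WT in 1 of 7, in neither case with DESeq2 (adjusted p 0.0545 and 0.0794). K815R exceeded LacZ by 0.25 (edgeR adjusted p 0.305). WT and LacZ differed by -0.04, with a 95% interval from -0.27 to 0.20.

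Id4, best known for its role in neural precursors, was the least counted of the ID genes, with 95 to 228 counts a library. It stood at 6.58, 6.33 and 7.83 CPM in LacZ and at 5.93, 4.91 and 5.42 CPM in WT. It stood at 9.74, 8.99 and 8.49 CPM in K815R and at 9.41, 8.13 and 8.49 CPM in the K815Q-labelled libraries. The WT libraries were all below LacZ. The K815R and the K815Q-labelled libraries were all above LacZ and overlapped each other.

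The value that placed Id4 in the set, K815R against WT, was a log2 fold change of 0.74, or 1.67-fold, and ranged from 0.68 to 0.81 when each library was left out. Labelled K815Q exceeded WT by 0.68, which rests on the same WT libraries and is given without a test. Against LacZ, the described values were -0.35 in WT and 0.39 in K815R, so WT lay below the control and K815R above it. The comparison that played no part in the choice, labelled K815Q against LacZ, gave 0.33 (SE 0.110, 95% interval 0.10 to 0.55) and did not pass (edgeR adjusted p 0.0702). Without LacZ replicate 3, the highest of its group, it was 0.43 and passed (edgeR adjusted p 0.0475). That was the 1 of 12 leave-one-out fits in which it passed, and it passed in 0 of the 7 other settings.

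**Figure D2:**
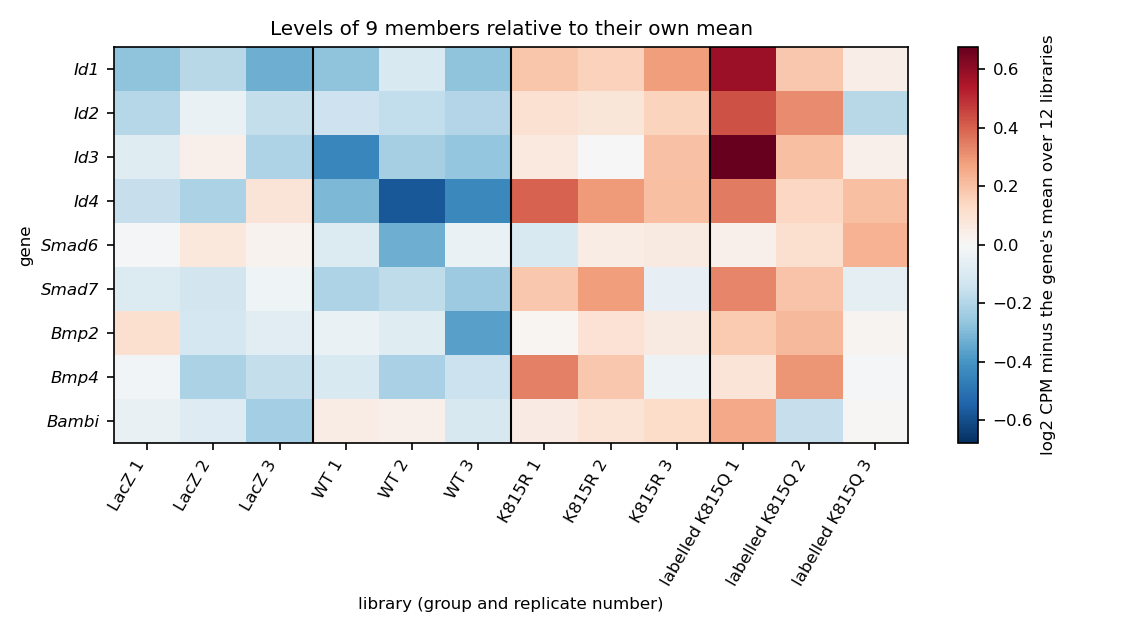
Colour shows log2 CPM minus each gene's mean over the 12 libraries, for 9 genes (rows) in the 12 libraries (columns, grouped by virus). The ID genes are mostly below their mean in LacZ and WT and mostly above it in K815R and labelled K815Q, and K815Q-labelled replicate 1 is the highest library for Id1, Id2 and Id3.

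The ID genes were then compared with all tested genes by the shape of their levels. Likeness was the root-mean-square difference between log2 CPM values, each centred on its gene's own mean over 12 libraries, so that a smaller value is a closer match. Among 14062 other genes, the closest to Id1 were Sox9, at 0.126, Id3, at 0.128, and Id2, at 0.131, where the median over all genes was 0.3. The closest to Id3 were Rdh16, at 0.126, Sox9, at 0.128, and Id1, at 0.128. The closest to Id2 were Medag, at 0.0908, then a gene that the table gives only a clone name and Kctd17, both at 0.110. The closest to Id4 were Clmp, at 0.146, N4bp2l1, at 0.162, and Fam131b, at 0.163, and Id4 lay farther from Id1, Id2 and Id3, at 0.222, 0.235 and 0.233. Smad7 lay at 0.118 from Id2 and at 0.187 from Id4, nearer to each than any other ID gene was. From Id1 and Id3 it lay at 0.169 and 0.183. These are descriptions over libraries that share groups, and the high K815Q-labelled replicate 1 enters each of them.

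The feedback inhibitors did not all follow the ID genes. Smad7, which blocks both BMP and TGF-beta receptors, stood at 36.3, 35.6 and 38.1 CPM in LacZ and at 33.6, 34.4 and 32.7 CPM in WT. It stood at 44.1, 47.2 and 37.4 CPM in K815R and at 48.8, 44.3 and 37.1 CPM in the K815Q-labelled libraries. WT was below every other library. Replicate 3 of K815R and replicate 3 of the K815Q-labelled group lay inside the LacZ range. The difference between labelled K815Q and WT was 0.37 on the log2 scale (SE 0.0903, edgeR adjusted p 0.0558), just outside the threshold. This difference passed in 4 of 7 other settings, among them one on the 6 libraries of these groups (edgeR adjusted p 0.0230). Against LacZ the values were 0.24 in labelled K815Q, 0.23 in K815R and -0.13 in WT, none of them called.

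Smad6, which acts mainly on the BMP branch, was called in none of the 5 tested comparisons by edgeR with the filter on low counts. It stood at 19.8, 21.0 and 20.2 CPM with LacZ, 18.7, 15.9 and 19.3 with WT, 18.5, 20.7 and 20.8 in K815R, with the K815Q-labelled libraries at 20.4, 21.5 and 23.5. Only the WT group stood apart from LacZ, with all 3 libraries lower, and the log2 fold change of -0.18 was not called (edgeR adjusted p 0.233). Labelled K815Q exceeded WT by 0.28 (edgeR adjusted p 0.109, 0.0451 without the filter and 0.123 by DESeq2), and K815R minus LacZ was -0.02, with a 95% interval from -0.19 to 0.14.

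Bambi, a receptor-like protein without a kinase domain that lowers signalling, stood at 27.9, 27.1 and 24.6 CPM with LacZ, 29.8, 29.6 and 26.7 with WT, 30.0, 30.8 and 31.5 in K815R, with the K815Q-labelled libraries at 34.4, 25.9 and 29.0. The K815R libraries were above all LacZ and WT libraries, and the K815Q-labelled group overlapped with every other. Bambi and Id1 had their lowest mean in LacZ, and the other 7 genes in WT. No comparison was called, the nearest being K815R against LacZ (log2 fold change 0.21, edgeR adjusted p 0.213).

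Neither ligand gene past the filter was called in any comparison. Bmp4 stood at 8.92, 7.80 and 8.07 CPM with LacZ, 8.42, 7.75 and 8.17 with WT, 11.5, 10.3 and 8.86 in K815R, with the K815Q-labelled libraries at 9.62, 11.2 and 9.01. All K815Q-labelled libraries lay above LacZ, and 1 K815R library overlapped with it. The log2 fold changes against LacZ were 0.30 in K815R (edgeR adjusted p 0.169) and 0.27 in labelled K815Q (edgeR adjusted p 0.133). Bmp2 stood at 7.37, 6.28 and 6.52 CPM with LacZ, 6.64, 6.46 and 5.28 with WT, 6.90, 7.33 and 7.13 in K815R, with the K815Q-labelled libraries at 7.75, 7.97 and 6.93. Its groups overlapped except that K815R and labelled K815Q both lay above WT. Labelled K815Q against WT gave 0.30 (edgeR adjusted p 0.213).

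**Figure D3:**
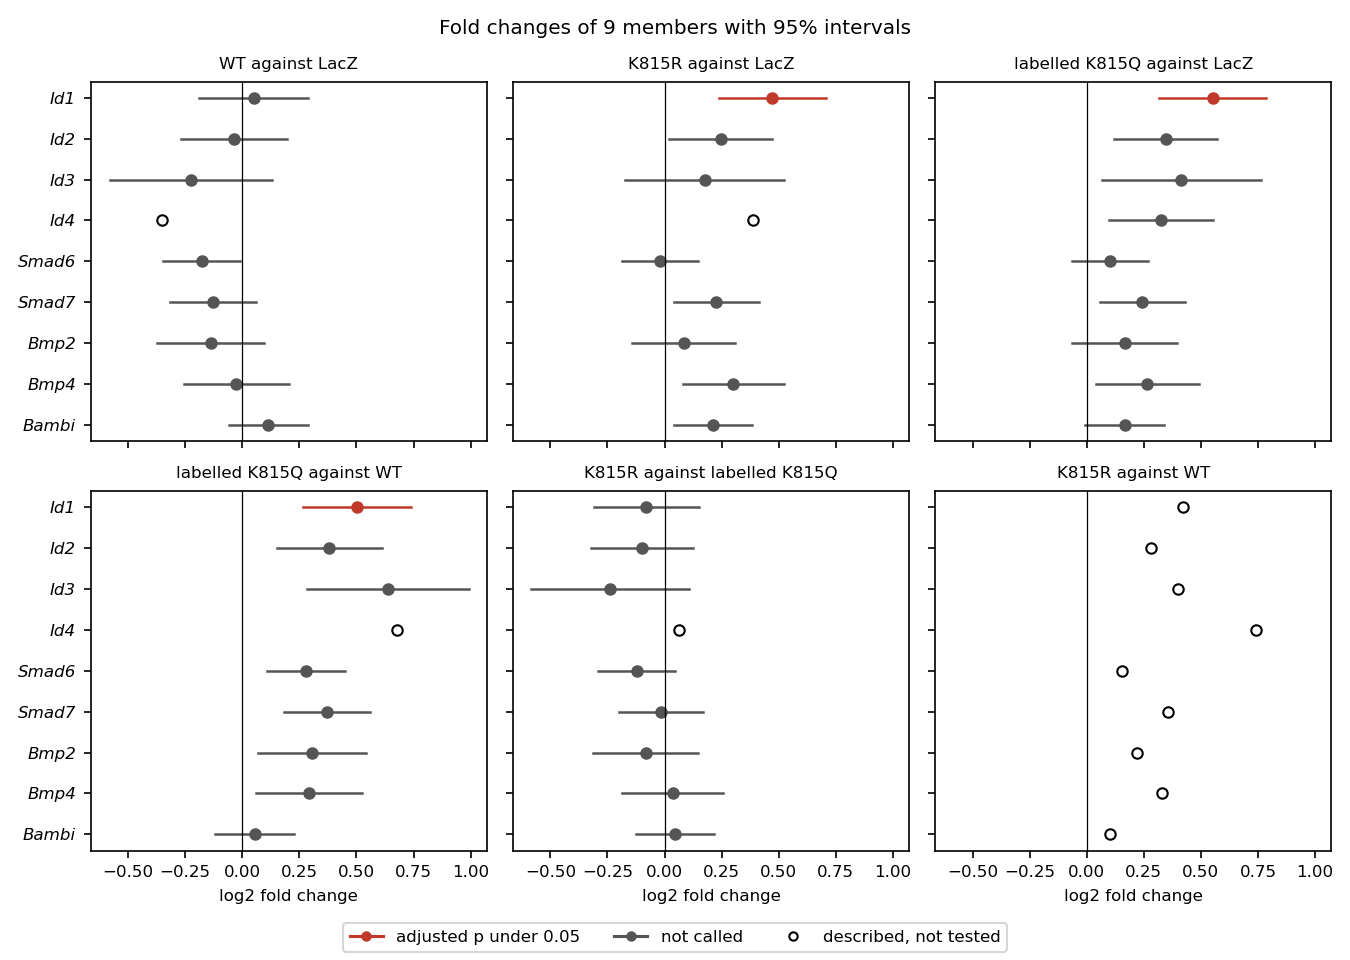
Log2 fold changes (horizontal axis) of 9 genes in 6 comparisons, with 95% intervals from the fit for those tested. Red points passed the adjusted p of 0.05, grey points did not, and open points are described without a test. Red appears for Id1 alone, at 0.47, 0.55 and 0.50.

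Over the set, 0 of the 8 genes tested in WT against LacZ were called by edgeR, where 5.34% of all 14063 genes were; 1 of the 8 had an unadjusted p under 0.05, and DESeq2 called 0. In K815R against LacZ, 1 of 8 was called, against 2.47% of all genes. Labelled K815Q against LacZ had 1 of 9 called, against 7.85%, which is near the background. Labelled K815Q against WT had 1 of 8 called, against 1.07%, and DESeq2 called 3. In K815R against labelled K815Q edgeR called 0 of 8, where 0.363% of all genes were called; 0 had an unadjusted p under 0.05, and DESeq2 called 0. Each count of 1 is Id1.

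Directions were counted over the 8 genes past the filter other than Id4, because Id4 was chosen on the WT and K815R libraries. Of these, 6 were lower in WT than in LacZ, 7 were higher in K815R than in LacZ and 8 were higher in labelled K815Q than in LacZ. The median log2 fold changes were -0.08, 0.22 and 0.25, beside medians of 0.01, 0.00 and 0.01 over all tested genes. These comparisons share the LacZ libraries. Without overlap between libraries, 3 genes were lower in WT (12.3% of all genes were), 3 were higher in K815R (9.11% of all genes) and 3 were higher in labelled K815Q (13.9% of all genes). Labelled K815Q against WT had a median of 0.34 with 8 of 8 genes higher, 6 of them without overlap, where 9% of all genes were. In K815R against WT, the comparison that chose Id4, the median was 0.30 with 7 of 8 genes higher without overlap, where 9.49% of all genes were; 2.2% of all genes were called in that comparison, and nothing is read from it here.

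Other genes of the pathway were taken from lists of 53 BMP ligands, receptors, SMADs, inhibitors, targets and E proteins, of which 46 passed the filter. In WT against LacZ, 6 of the 46 were called, all of them lower, where 3.39% of all genes were called as lower. Of these 6, 5 were among the 14 tested inhibitors, and 13 of the 14 had a lower level in WT. The median log2 fold change of the inhibitors was -0.20, beside 0.01 over all genes. Of the 8 fibroblast markers in WT against LacZ, edgeR called 1 as higher and 1 as lower, with a median of -0.11. There 6 of the 8 had an unadjusted p under 0.05 and DESeq2 called 4. The part of the fibroblast markers in the inhibitor result was not tested. In K815R against LacZ and labelled K815Q against LacZ, 11 and 12 of the 14 inhibitors were lower, where 51.2% and 51.7% of all genes were higher. EdgeR called 0 inhibitors in both, where it called 2.47% and 7.85% of all genes, so 0 of 14 is near the background. Of the 14, 3 and 4 had an unadjusted p under 0.05, and DESeq2 called 0 in both.

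Fst, follistatin, a secreted protein that binds activins and some BMPs, fell in WT. It stood at 12.4, 12.9 and 11.4 CPM in LacZ and at 7.40, 8.84 and 6.80 CPM in WT, while K815R (11.5 to 13.0 CPM) and the K815Q-labelled libraries (11.2 to 13.2 CPM) overlapped with LacZ. The WT libraries were below all 9 others. The log2 fold change was -0.67 against LacZ (SE 0.104, edgeR adjusted p 3.09e-04). Labelled K815Q exceeded WT by 0.65 (SE 0.107, edgeR adjusted p 0.00249). Leaving out any of the 12 libraries kept both calls of Fst.

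Bmp3, a ligand that opposes the signalling of other BMPs, was lower in WT and K815R than in LacZ. It stood at 8.13, 7.80 and 6.15 CPM with LacZ, 3.70, 3.93 and 3.09 with WT, 4.79, 5.28 and 5.22 in K815R, with the K815Q-labelled libraries at 6.03, 6.70 and 4.69. WT was lowest without overlap, and K815R lay below LacZ without overlap. The log2 fold change of Bmp3 in WT was -1.04 (SE 0.144, edgeR adjusted p 9.48e-05) and that in K815R was -0.52 (SE 0.134, edgeR adjusted p 0.0348). The first call survived the loss of any of the 12 libraries, and the second was kept in 1 of the 6 fits without a library of its groups and lost with DESeq2 (adjusted p 0.0554). Labelled K815Q exceeded WT by 0.70 (edgeR adjusted p 0.0213), a call that 2 of the 6 fits without a library of its groups kept.

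Of the other inhibitors called in WT, 3 are named after their values were seen: Chrd, which sequesters BMPs (-0.61), Bmper, a binding protein that can restrain or aid them (-0.54), and Fstl1, a follistatin-like secreted protein (-0.19). Of the 6 fits that left out a WT or LacZ library, 3 kept the call of Chrd, 2 that of Bmper and 2 that of Fstl1.

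Labelled K815Q against LacZ had 3 of the 46 pathway genes called, 1 higher and 2 lower. Of all genes 7.85% were called in that comparison, so the count is near the background. Bmpr2, the type II receptor, fell from 50.8 to 65.8 CPM in LacZ to 40.9 to 47.6 CPM (log2 fold change -0.42, SE 0.0855, edgeR adjusted p 0.00658). Without K815Q replicate 1 its value was -0.37 with an edgeR adjusted p of 0.0501. Gdf6, a BMP-family ligand, was higher (0.33, edgeR adjusted p 0.0378), with overlap between the groups, and 2 of the 6 fits without a library of its groups kept the call. DESeq2 did not call Gdf6 (adjusted p 0.0530), nor did edgeR on the 6 libraries of these groups (adjusted p 0.0621). Tcf12, an E protein and partner of the ID proteins, was lower (-0.34, edgeR adjusted p 0.0198); it is named after its value was seen, and 2 of 6 such fits kept it. Without K815Q replicate 1 none of the 3 genes was called.

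Of the genes that carry the signal, edgeR called 0 of the 3 SMADs past the filter, Smad1, Smad5 and Smad4, in the 5 tested comparisons, with 0 to 1 of them at an unadjusted p under 0.05 and 0 called by DESeq2; Smad9 was under the filter. EdgeR also called 0 of the 10 other target genes in these comparisons, with 1 to 2 at an unadjusted p under 0.05, and DESeq2 called 1, in labelled K815Q against LacZ. Over all genes edgeR called 0.363% to 7.85% in these comparisons, so 0 calls in lists of 3 and 10 are near the background. In K815R against LacZ, 6 targets were higher and 4 lower. Of the higher, 2 did not overlap with LacZ, where 9.11% of all genes were higher without overlap. The target list had medians of -0.01 in WT, 0.08 in K815R and 0.10 in labelled K815Q against LacZ.

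**Figure D4:**
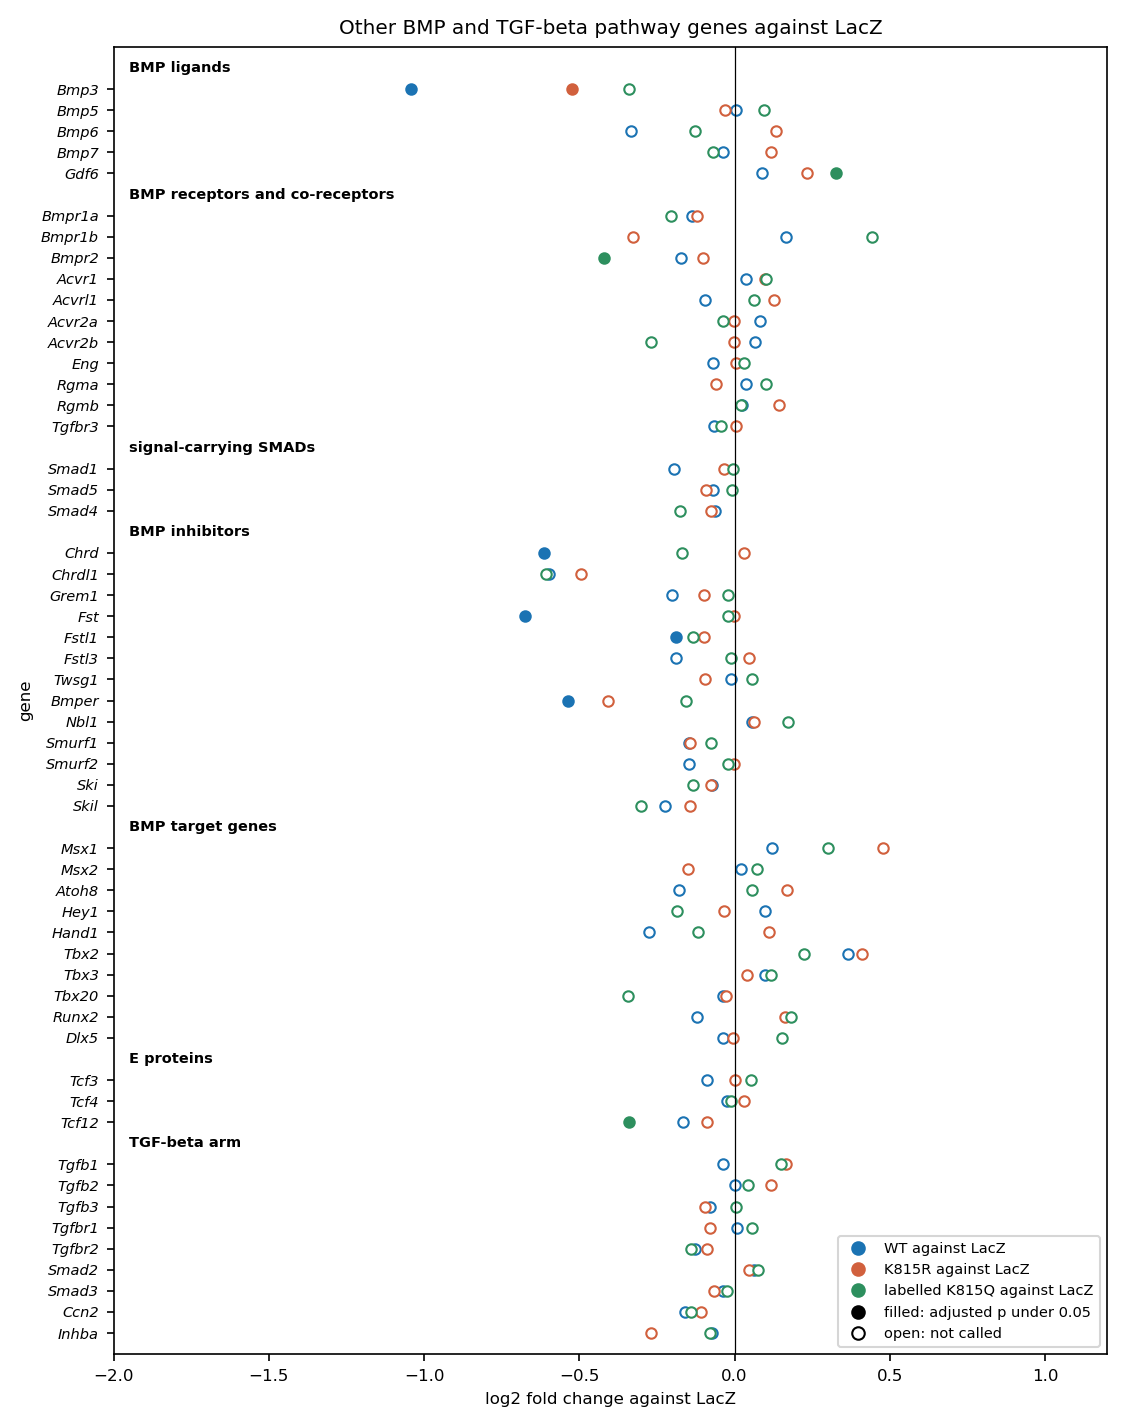
Log2 fold change against LacZ (horizontal axis) of 54 other BMP and TGF-beta pathway genes, grouped by role, in WT (blue), K815R (orange) and labelled K815Q (green). Filled points passed the adjusted p of 0.05. The filled blue points cluster among the inhibitors, with Fst at -0.67 and Chrd at -0.61, and Bmp3 is the lowest ligand at -1.04.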

How the data were processed

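RNA of 12 libraries was selected for poly(A) and sequenced as single reads, per the labels' protocols. The authors deposited raw read counts per gene; Trimmomatic 0.39, HISAT2 2.2.1, HTSeq 0.6.1 and build Rnor_6.0 are named in the submitters' processing notes. Neither the gene annotation nor the strand option is given in the sources used here, so overlapping genes are uncertain. Between 25.6% and 26.9% of reads aligned to more than 1 place and 11.7% to 12.9% to no feature; these counter lines stayed out of library sizes and tests.

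Low counts were removed with filterByExpr at a minimum count of 10 and a total of 15, and 14063 genes remained. The test was the one in edgeR 4.0.16 (R 4.3.3), with TMM scaling, a robust quasi-likelihood fit of group means over the 12 libraries, and Benjamini-Hochberg adjustment over all tested genes, called under 0.05. Standard errors were derived from the F statistic, and intervals of fold changes are 95%. Centred log2 CPM used a prior count of 2. The procedure was tested on simulated data. The alternatives changed the scaling (RLE, upper quartile), the filter (none, or 10 counts in each library), the tool (DESeq2 1.42.0), or the model (replicate number as a block, a fit to 6 libraries), or left out each library in turn. All 10 members are named; of other pathway genes, per comparison, the 2 higher and 2 lower called genes with the largest change, and the 3 genes closest in level to each ID gene; Chrd, Bmper, Fstl1 and Tcf12 were added after their values were seen, and 2 genes that the rule gives are not reported here. Members, lists and tests were chosen with earlier results of these data known. Promoter sequences are from RefSeq.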

Additional observations from a re-analysis of the deposited data

How the results depend on the processing

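With 3 libraries a group and most differences under 1.5-fold, single genes lie near the threshold, and depth limits Bmp10. The log2 fold change of Id4 in K815R against WT moved by less than the spread between replicates in all 19 alternatives. That value chose the gene and the alternatives reuse the same libraries, so its stability is a description and no support for the difference. The counts of members called in WT against LacZ (0) and in K815R against labelled K815Q (0), and of pathway genes called in WT against LacZ (6; 4 to 7 without a library), stayed within 1.5 times under all 19 alternatives. The other counts moved, and the cause was not tested. Members called in K815R against LacZ went from 1 to 2 without a filter and to 0 to 1 when a library was left out. In labelled K815Q against LacZ they went from 1 to 2 with upper-quartile scaling, 3 without a filter and 1 to 4 when a library was left out, with 4 (Id1, Id2, Id3 and Smad7) without K815Q replicate 3. Over all genes that last fit called 733 of 14264 in this comparison, and the fit without a filter 1528 of 22491. In labelled K815Q against WT members called went from 1 to 4 without a filter, 3 with DESeq2 and 0 to 4 when a library was left out, with the same 4 genes without K815Q replicate 3. Over all genes that last fit called 137 of 14264 in this comparison, and DESeq2 179 of 11607. Pathway genes called in K815R against LacZ went from 1 to 3 without a filter, 0 with DESeq2 and 0 to 1 when a library was left out. In labelled K815Q against LacZ they went from 3 to 7 without a filter and 0 to 5 when a library was left out, with 0 without K815Q replicate 1. In labelled K815Q against WT they went from 2 to 4 without a filter and 1 to 2 when a library was left out. In K815R against labelled K815Q they went from 0 to 1 without a filter and 0 to 1 when a library was left out. Over all genes, dropping the filter raised the calls from 348 to 600 in K815R against LacZ, 151 to 423 in labelled K815Q against WT, 51 to 307 in K815R against labelled K815Q and 309 to 553 in K815R against WT; in K815R against labelled K815Q, DESeq2 called 101 and the 6-library fit 85. Leaving out a library gave 378 to 839 calls in WT against LacZ (751 with all), 173 to 364 in K815R against LacZ, 360 to 1318 in labelled K815Q against LacZ (1104 with all), 50 to 218 in labelled K815Q against WT and 11 to 98 in K815R against labelled K815Q.

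Whether the replicate numbers pair the libraries is not stated by the labels and could not be settled here. Correlations of deviations from the group means were -0.13 to 0.12 for same-numbered libraries of different groups and -0.129 to 0.145 for other pairs. Between WT, K815R and labelled K815Q every same-numbered pair was positive, at 0.000193 to 0.122. Same-numbered pairs with LacZ ran from -0.127 to 0.0279. Of 12 libraries, 5 correlated best with their own number. The main tests used no pairing. With the replicate number as a block, members called were 2 in labelled K815Q against LacZ and 2 in labelled K815Q against WT, and pathway genes called were 5 in labelled K815Q against LacZ. Over all genes the block raised the calls in each of the 6 comparisons. They went from 151 to 232 in labelled K815Q against WT and from 51 to 86 in K815R against labelled K815Q.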
